A study of Mus musculus with 12 samples.

Results

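Choroid plexus epithelium is marked by a set of 10 genes, which were followed library by library in RNA-seq data from mouse cortex: Ttr, Folr1, Kl, Prlr, Aqp1, Slc4a5, Clic6, Otx2, Sostdc1 and F5. They were picked by gene symbol, as 10 of the 27179 genes in the deposited count table, and all 10 were found there. The study compared mice that differ in Grn, the gene of the secreted lysosomal glycoprotein progranulin, whose loss is linked to frontotemporal dementia. KO mice were Grn-/- (progranulin null), MUT mice were Grn-/-; GRNmEx5 (humanized animals with a pathogenic deletion in GRN), and WT mice were Grn+/+. KO and MUT therefore share the loss of mouse Grn. Each genotype had 4 libraries. KO replicates 1 to 4 were 308, 282, 282 and 282 days old, MUT replicates were 287, 272, 309 and 282 days old, and WT replicates were 287, 375, 375 and 375 days old. Since only WT mice were 375 days old, age and genotype cannot be fully told apart. By label, KO held 2 male and 2 female mice, MUT 1 male and 3 female, and WT 3 male and 1 female.

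The choroid plexus hangs in the brain ventricles as a folded epithelium around leaky capillaries. It secretes cerebrospinal fluid and passes hormones, vitamins and ions from blood to brain. Transthyretin, the product of Ttr, is its best known transcript, and neurons and glia of the cortex make little of it. The plexus does not belong to the cortex.

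Library totals ran between 16381221 and 20782195 counts. Grn was at 12.91, 10.79, 13.35 and 13.96 CPM in KO libraries and at 11.46, 13.75, 13.29 and 15.31 CPM in MUT libraries, against 57.18, 59.91, 57.57 and 57.01 CPM in WT libraries, where CPM is a read count scaled to library size with TMM factors (trimmed mean of M values). Its levels were thus low in every library labelled as null and high in every WT library. The sex labels went against the transcripts, as the 6 libraries labelled female had 1 to 19 reads of Xist and 1156 to 1654 reads of the Y-linked Ddx3y, and the 6 labelled male had 9390 to 12900 reads of Xist and 0 to 4 of Ddx3y. Labelled and transcript-based sex were opposite in every library, so the term for sex in the models is the same under either reading. The tissue label was checked with 10 markers of cortical excitatory neurons, whose summed level was 2183 to 2490 CPM in KO, 2010 to 2433 CPM in MUT and 2187 to 2661 CPM in WT libraries. Markers of striatal neurons, which neighbour the cortex, stood apart in the WT group, with summed levels of 243 to 399 CPM in KO and 257 to 339 CPM in MUT, against 279, 581, 1025 and 1995 CPM in WT replicates 1 to 4. The labels do not say that each library came from a separate mouse, so p-values measure the spread between libraries.

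Most reads of every choroid plexus gene came from 3 libraries, 1 of each genotype. They were KO replicate 3, MUT replicate 1 and WT replicate 4, and for all 10 genes these were the 3 highest of the 12 libraries. The 10 genes together summed to 19.0, 14.2, 2034 and 17.8 CPM in KO replicates 1 to 4 and to 1433, 44.5, 22.2 and 13.9 CPM in MUT replicates, against 56.1, 21.4, 10.7 and 686 CPM in WT replicates. The 3 high libraries share neither age nor labelled sex: KO replicate 3 was a 282-day female, MUT replicate 1 a 287-day female and WT replicate 4 a 375-day male by label. In RNA from whole tissue, fewer cells of a type and less RNA per cell cannot be told apart.

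**Figure D1:**
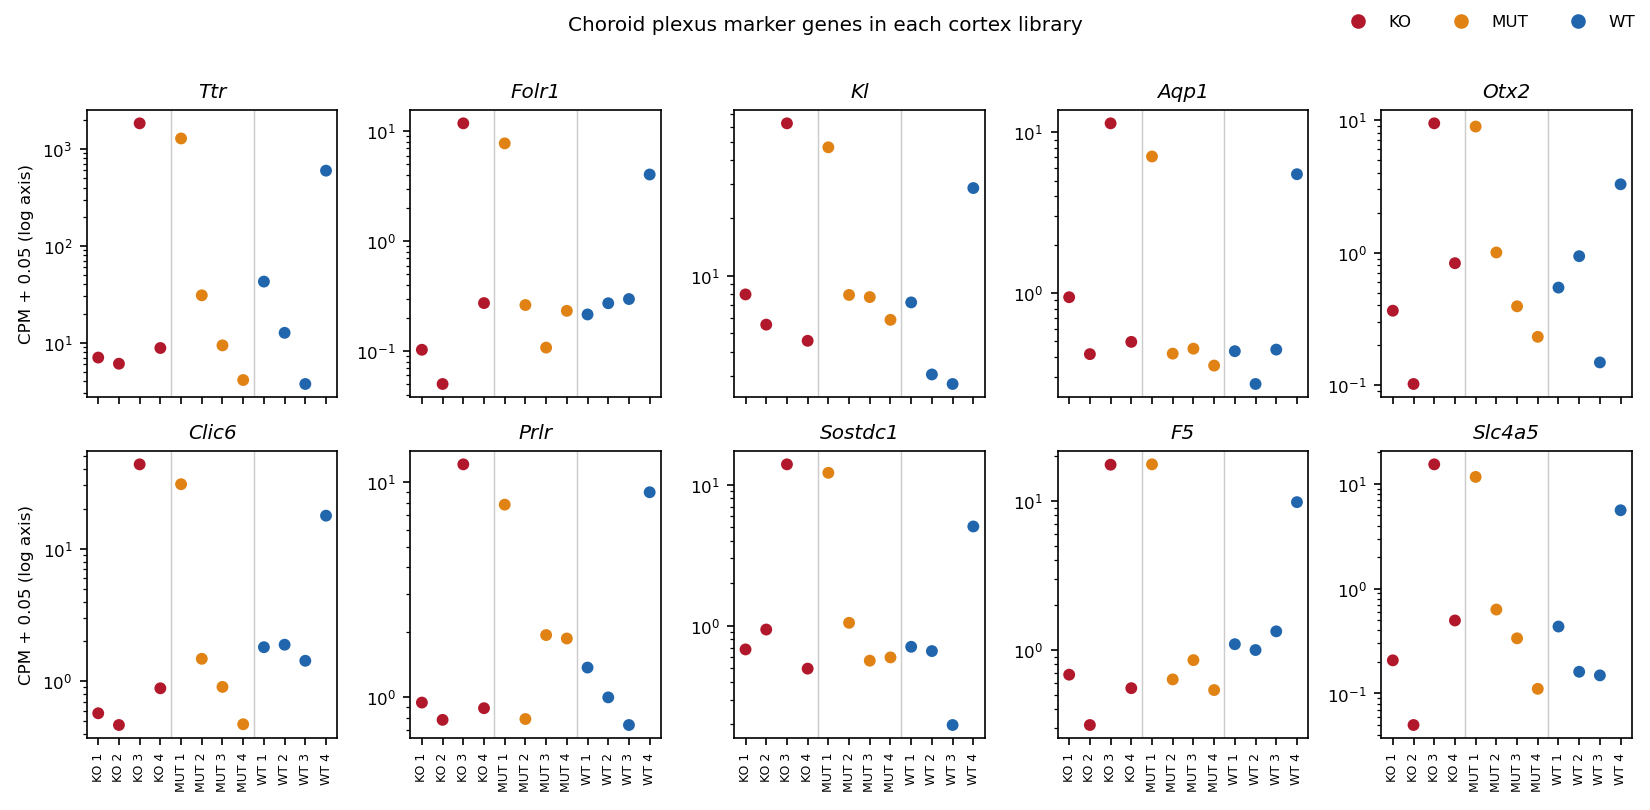
CPM of each of the 10 choroid plexus genes (vertical log axis, with 0.05 CPM added so that libraries at 0 can be drawn) in each of the 12 libraries, coloured by genotype. In every panel KO replicate 3, MUT replicate 1 and WT replicate 4 lie above the other 9 libraries, by the widest margin in Folr1 and Ttr.

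Among the carriers and receptors, Ttr encodes transthyretin, which carries thyroxine and retinol-binding protein in cerebrospinal fluid (chr18:20665250-20674326, plus strand, mm10, Entrez 22139). Ttr was at 6.98, 6.02, 1838 and 8.77 CPM in KO replicates 1 to 4 and at 1283, 30.8, 9.34 and 4.07 CPM in MUT replicates, against 42.7, 12.6, 3.70 and 597 CPM in WT replicates. The highest library exceeded the lowest 496-fold, and the third highest, WT replicate 4, exceeded the fourth, WT replicate 1, 14.0-fold. Even among the other 9 libraries Ttr differed 11.5-fold, with WT replicate 1 and MUT replicate 2 above the rest. The 3 genotypes overlapped over most of this span.

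Folr1, the folate receptor that takes folate across the plexus (chr7:101858331-101870788, minus strand, Entrez 14275), was nearly silent elsewhere. It had 1, 0, 213 and 4 reads in KO replicates and 160, 4, 1 and 3 reads in MUT replicates, against 3, 4, 5 and 67 reads in WT replicates. In CPM the 3 high libraries stood at 11.8 in KO, 7.73 in MUT and 4.00 in WT, and no other library passed 0.247. The 0 reads of KO replicate 2 allow up to 0.157 CPM, taking 3 reads as the limit that a count of 0 allows. The third highest library exceeded the fourth 16.2-fold, the widest step among the 10 genes.

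Kl encodes klotho, a co-receptor for FGF23 that the kidney and the choroid plexus make (chr5:150952607-150993817, plus strand, Entrez 16591). It was at 7.93, 5.50, 62.3 and 4.52 CPM in KO replicates and at 46.7, 7.88, 7.68 and 5.83 CPM in MUT replicates, against 7.20, 3.0, 2.67 and 28.6 CPM in WT replicates. Kl kept a measurable level in all 12 libraries, with at least 54 reads, and its step between the third and the fourth library was 3.61-fold. Prlr, the prolactin receptor (chr15:10177238-10349180, plus strand, Entrez 19116), was at 0.892, 0.733, 12.0 and 0.837 CPM in KO replicates and at 7.78, 0.740, 1.89 and 1.82 CPM in MUT replicates, against 1.32, 0.946, 0.691 and 8.89 CPM in WT replicates. It was the gene in which WT replicate 4 ranked above MUT replicate 1. Its span over the 12 libraries was 17.3-fold, the narrowest of the 6 genes whose lowest library had over 3 reads.

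Among the transport proteins, Aqp1, the water channel of the plexus's apical membrane (chr6:55336299-55348555, plus strand, Entrez 11826), was at 0.892, 0.367, 11.3 and 0.447 CPM in KO replicates and at 7.01, 0.370, 0.401 and 0.304 CPM in MUT replicates, against 0.385, 0.222, 0.395 and 5.43 CPM in WT replicates. Outside the 3 high libraries it rested on 4 to 17 reads. Slc4a5 encodes an electrogenic sodium bicarbonate cotransporter (chr6:83237375-83304945, plus strand, Entrez 232156). It was at 0.157, 0, 15.3 and 0.447 CPM in KO replicates and at 11.6, 0.582, 0.286 and 0.0607 CPM in MUT replicates, against 0.385, 0.111, 0.0988 and 5.55 CPM in WT replicates. As with Folr1, it had no read in KO replicate 2, which allows up to 0.157 CPM. Clic6, of the chloride intracellular channel family (chr16:92498147-92541241, plus strand, Entrez 209195), was at 0.525, 0.419, 43.2 and 0.837 CPM in KO replicates and at 30.6, 1.43, 0.859 and 0.425 CPM in MUT replicates, against 1.76, 1.84, 1.38 and 17.7 CPM in WT replicates. Its highest library exceeded its lowest 103-fold. Below the 3 high libraries, WT replicates 1 to 3 held 3 of the next 4 places for Clic6.

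Otx2 is a homeobox transcription factor required for choroid plexus development and kept on in the adult epithelium (chr14:48658171-48662872, minus strand, Entrez 18424). It was at 0.315, 0.0524, 9.36 and 0.782 CPM in KO replicates and at 8.85, 0.952, 0.344 and 0.182 CPM in MUT replicates, against 0.495, 0.890, 0.0988 and 3.22 CPM in WT replicates. Its step from the third to the fourth library was 3.38-fold, the smallest of the 10, and its lowest library had 1 read.

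The secreted factors had the same 3 high libraries. Sostdc1, an extracellular antagonist in BMP and Wnt signalling (chr12:36314169-36318452, plus strand, Entrez 66042), was at 0.630, 0.891, 13.9 and 0.447 CPM in KO replicates and at 12.1, 1.0, 0.516 and 0.547 CPM in MUT replicates, against 0.660, 0.612, 0.148 and 5.01 CPM in WT replicates. F5, coagulation factor V, a plasma protein mainly of the liver (chr1:164151859-164220274, plus strand, Entrez 14067), was at 0.630, 0.262, 17.5 and 0.502 CPM in KO replicates and at 17.6, 0.582, 0.802 and 0.486 CPM in MUT replicates, against 1.04, 0.946, 1.28 and 9.78 CPM in WT replicates. F5 was the gene with its highest value in MUT replicate 1, just above KO replicate 3.

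RefSeq promoter windows (assembly GRCm38.p6, the mm10 build) were found for 6 of the 10 genes, F5, Kl, Aqp1, Slc4a5, Otx2 and Prlr, with 11 windows in all. The windows of Kl and Aqp1 are shown because these genes represent the receptors and the transporters and their 250 bases before the start overlap no annotated exon. They lie at chr5:150952357-150952606 and chr6:55336049-55336298, both on the plus strand, and are written in the direction of transcription.
Kl: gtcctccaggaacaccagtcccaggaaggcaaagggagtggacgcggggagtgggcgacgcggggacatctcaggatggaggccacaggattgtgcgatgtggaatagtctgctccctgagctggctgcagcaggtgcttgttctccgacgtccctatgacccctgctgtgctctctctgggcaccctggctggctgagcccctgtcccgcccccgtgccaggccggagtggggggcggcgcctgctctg
Aqp1: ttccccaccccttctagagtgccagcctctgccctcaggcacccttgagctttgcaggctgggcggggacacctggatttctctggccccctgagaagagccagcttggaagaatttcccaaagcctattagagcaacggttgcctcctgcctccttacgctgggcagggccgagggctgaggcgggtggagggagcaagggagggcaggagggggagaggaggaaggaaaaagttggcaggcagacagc
TAATCC, the core DNA motif of Otx2, was searched on both strands (as TAATCC or GGATTA) in the 250 bases before each start. It was present in 1 of the 11 windows, an Otx2 window whose 250 bases all overlap annotated exons. Neither printed window holds the motif, so no base is in capitals. Of 32851 RefSeq promoters searched the same way, 6.25% held it. A match in these letters is a description and not a binding site. GC content was 66.8% in the Kl window and 62.0% in the Aqp1 window.

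Reads per 100 reads of Ttr were compared between the 3 high libraries for the other 9 genes. The 95% intervals given are Clopper-Pearson and cover counting error only. Folr1 had 0.642 (0.559 to 0.735) reads per 100 Ttr reads in KO replicate 3 and 0.603 (0.513 to 0.704) in MUT replicate 1, against 0.669 (0.518 to 0.85) in WT replicate 4. Slc4a5 had 0.832 (0.737 to 0.937) in KO replicate 3 and 0.901 (0.79 to 1.02) in MUT replicate 1, against 0.928 (0.749 to 1.14) in WT replicate 4. For these genes, and for Sostdc1 with 0.757 in KO and 0.946 in MUT, against 0.838 in WT, the 3 intervals overlapped.

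For 4 genes the interval of WT replicate 4 lay above those of the other 2 libraries. Prlr differed most, with 0.651 (0.567 to 0.745) reads per 100 Ttr reads in KO replicate 3 and 0.607 (0.516 to 0.708) in MUT replicate 1, against 1.49 (1.26 to 1.75) in WT replicate 4. Kl had 3.39 (3.19 to 3.6) in KO and 3.64 (3.41 to 3.88) in MUT, against 4.78 (4.35 to 5.24) in WT. Clic6 was at 2.35 (2.19 to 2.53) in KO and 2.39 (2.2 to 2.59) in MUT, against 2.96 (2.63 to 3.33) in WT, and Aqp1 had 0.615 (0.533 to 0.706) in KO and 0.546 (0.461 to 0.643) in MUT, against 0.908 (0.731 to 1.12) in WT. F5 parted otherwise, with KO replicate 3 at 0.95 (0.847 to 1.06) below MUT replicate 1 at 1.38 (1.24 to 1.53) and WT replicate 4 at 1.64 (1.39 to 1.91). Otx2 was at 0.510 (0.435 to 0.593) in KO and 0.690 (0.593 to 0.798) in MUT, against 0.539 (0.405 to 0.704) in WT. Each genotype is represented here by 1 library, so these are differences between libraries and no genotype can be tested on them.

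In the other 9 libraries, where Ttr was at 3.70 to 42.7 CPM, the ratios were wide. For Kl, Prlr, Clic6, F5, Sostdc1 and Otx2 they lay above those of the 3 high libraries in all 9, while Aqp1, Folr1 and Slc4a5 had values on both sides of 1 or more of them. Kl had 16.9 to 143 reads per 100 Ttr reads there and Prlr 2.41 to 44.8, so that in MUT replicate 4 and KO replicate 1 Kl had more reads than Ttr itself. Clic6 ranged over 4.12 to 37.3, F5 over 1.89 to 34.7, Sostdc1 over 1.54 to 14.8 and Aqp1 over 0.901 to 12.8 reads per 100 Ttr reads. Otx2 ranged over 0.87 to 8.92, and Folr1 and Slc4a5, with 0 to 11 reads per library, over 0 to 6.67 and 0 to 5.10.

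**Figure D2:**
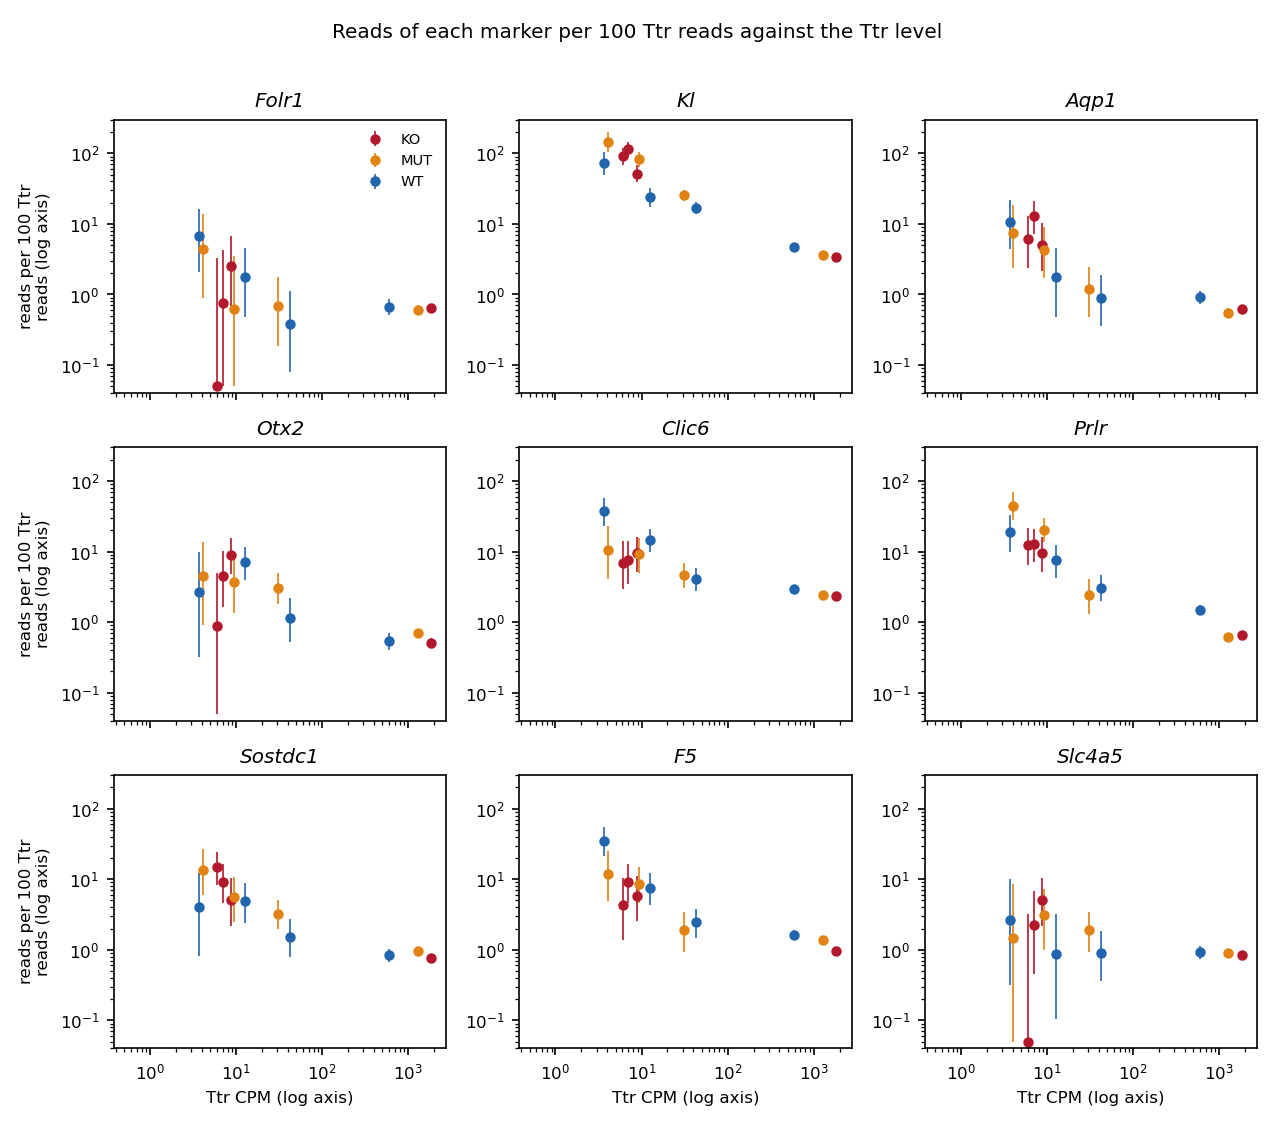
Reads of each gene per 100 reads of Ttr (vertical log axis) against the Ttr level in CPM (horizontal log axis), 1 point per library, with 95% Clopper-Pearson intervals for counting error. Points and interval ends below 0.05, including the libraries without a read of Folr1 or Slc4a5, are drawn at 0.05. The 3 libraries at the right have narrow intervals and the lowest ratios of Kl and Prlr, at 3.39 to 4.78 and 0.607 to 1.49 per 100.

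A level that does not move with Ttr drops out when 2 libraries of the same genotype are subtracted, if it is equal in both. Levels varied between the libraries low in Ttr. Kl was at 7.2, 3.0 and 2.67 CPM in WT replicates 1 to 3, where Ttr fell in the same order. Prlr was at 0.74, 1.89 and 1.82 CPM in MUT replicates 2 to 4, where Ttr fell from 30.8 to 4.07 CPM. The gains therefore depend on the low library used, and their counting errors leave this spread out. The library with the most Ttr was set against the one with the least in each genotype (KO replicate 3 minus 2, MUT replicate 1 minus 4, WT replicate 4 minus 3). Per 100 CPM gained in Ttr, Folr1 gained 0.644 ± 0.0442 CPM in KO and 0.591 ± 0.0485 CPM in MUT, against 0.631 ± 0.0843 CPM in WT (± counting SE, 1 pair of libraries each). Its highest and lowest gain differed 1.09-fold, and those of Slc4a5 1.10-fold and Clic6 1.18-fold. Kl gained 3.10 ± 0.106 CPM in KO and 3.20 ± 0.126 CPM in MUT, against 4.36 ± 0.228 CPM in WT, a 1.41-fold span. The gain of Prlr was 0.613 ± 0.0457 CPM in KO and 0.466 ± 0.0546 CPM in MUT, against 1.38 ± 0.126 CPM in WT, which at 2.96-fold was the widest span of the 9 genes. Sostdc1, Otx2, F5 and Aqp1 lay between these, with spans of 1.27, 1.33, 1.52 and 1.62-fold.

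**Figure D3:**
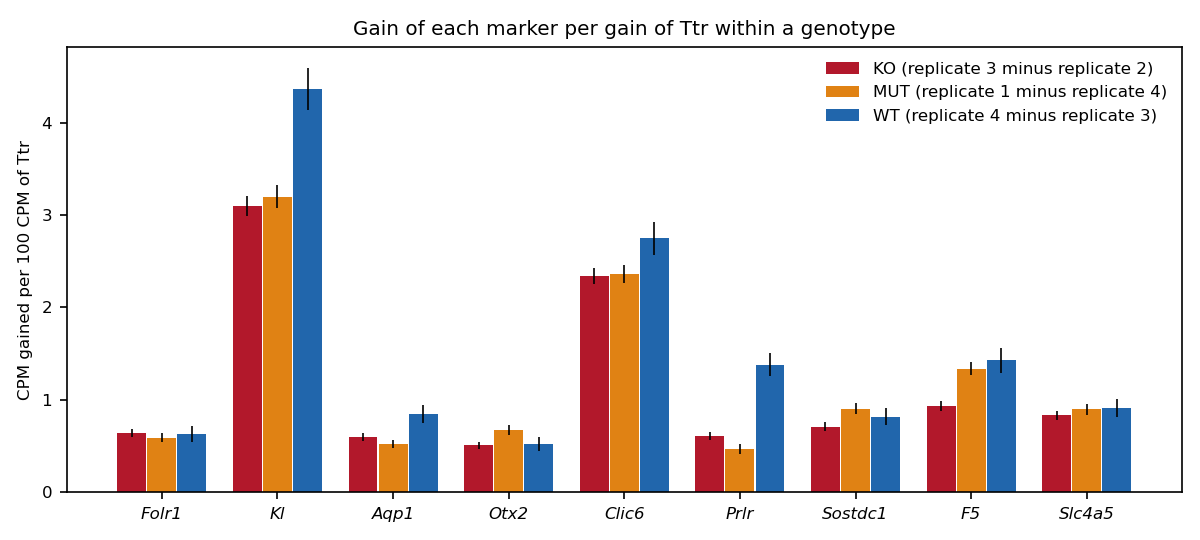
CPM gained by each gene per 100 CPM gained in Ttr (vertical axis from 0) between the lowest-Ttr and the highest-Ttr library of each genotype, with counting SEs as error bars. The 3 bars of Folr1 and Slc4a5 are nearly level, and the WT bar of Prlr, at 1.38, stands above its KO and MUT bars at 0.613 and 0.466.

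Per kb of exon, the scale on which genes can be set beside each other, Ttr led by far. In KO replicate 3 its level was 1505 CPM per kb, followed by Kl at 12.2, Clic6 at 11.5, Folr1 at 8.39, Sostdc1 at 7.94, Otx2 at 5.39, Aqp1 at 4.1, Slc4a5 at 2.98, F5 at 2.36 and Prlr at 0.892 CPM per kb. The counting intervals of Kl and Clic6, of Folr1 and Sostdc1, and of Otx2 and Aqp1 overlapped, so these neighbours cannot be ordered. In MUT replicate 1 and WT replicate 4 Ttr was at 1050 and 489 CPM per kb, Kl and Clic6 again came next, and Prlr, whose counted exons add up to 13415 bases, was again last. Over all 12 libraries the median level was 8.98 CPM per kb for Ttr, 1.46 for Kl and 0.375 or less for each of the other 8.

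Group means carry the 1 high library of each genotype. Ttr averaged 465 ± 915 CPM in KO and 332 ± 634 CPM in MUT, against 164 ± 289 CPM in WT (SD, n = 4 each). Kl averaged 20.1 ± 28.2 CPM in KO and 17.0 ± 19.8 CPM in MUT, against 10.4 ± 12.3 CPM in WT, and Clic6 11.2 ± 21.3 CPM in KO and 8.33 ± 14.9 CPM in MUT, against 5.67 ± 8.02 CPM in WT. In all 10 genes and all 3 genotypes the SD exceeded the mean.

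Genotypes were tested over all genes with edgeR's quasi-likelihood F test, with genotype and labelled sex as terms and Benjamini-Hochberg adjustment (called at an adjusted p below 0.05). Of the 10 genes 9 could be tested, as Folr1 reached 10 reads in only 3 libraries and did not pass the filter on low counts. In KO against WT, 0 of the 9 were called, beside 0.471% of the 15298 genes tested (22 higher and 50 lower in KO), and 0 of the 9 had an unadjusted p below 0.05, against 2734 of all genes. The log2 fold changes of the 9 ran between -3.15 and 0.26 with a median of -0.41, against a median of 0.005 over all genes. Their standard errors of 1.09 to 2.87 compare with a median of 0.09 over all genes, so the interval of any 1 gene is wide. For Ttr the log2 fold change was -3.15 (SE 2.87, 95% interval -9.39 to 3.09, edgeR adjusted p = 0.606), and for Kl it was 0.26 (SE 1.09, 95% interval -2.10 to 2.63, edgeR adjusted p = 0.930). The sign rests on the model: with no term for sex the Ttr value was 1.51, and without WT replicate 4 it was 1.96.

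In MUT against WT, 0 of the 9 were called, beside 0.0196% of all genes, and 0 had an unadjusted p below 0.05, against 1710 of all genes. The median was -0.91, against 0.004 over all genes, with a range of -3.74 to -0.09. The log2 fold change of Ttr was -3.74 (SE 2.99, 95% interval -10.25 to 2.77, edgeR adjusted p = 0.660), and it was 1.33 without WT replicate 4 and 1.02 with no term for sex. In MUT against KO, 0 of the 9 were called, beside 0.00654% of all genes, and 0 had an unadjusted p below 0.05, against 879 of all genes. The median was -0.39, against -0.004 over all genes, and Ttr differed by -0.59 (SE 1.89, 95% interval -4.70 to 3.52, edgeR adjusted p = 0.995), or 5.01 without KO replicate 3. KO and MUT are both set against the same WT libraries, so their values are not independent. All 27 differences, 9 genes in 3 comparisons, changed sign in at least 1 of 22 other settings, and none of the genes was called in any of them, limma-voom included. DESeq2 gave an adjusted p for only 2 of the 9, Otx2 and Prlr, and so could not call the other 7.

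Without KO replicate 3, MUT replicate 1 and WT replicate 4, each genotype kept 3 libraries, and 7 genes passed the filter (Aqp1, Slc4a5 and Folr1 did not). None of the 7 was called in KO against WT, where 0.0131% of 15253 genes were, in MUT against WT, where 0.0197% were, or in MUT against KO, where 0.00656% were. The spread was smaller in these fits, with standard errors of 0.35 to 0.84 in KO against WT. Clic6 and F5 came nearest to the threshold in that comparison and are named after their values were seen. Clic6 had 8 to 15 reads in KO and 7 to 27 in MUT, against 28 to 33 in WT libraries, and its log2 fold change was -1.49 (SE 0.39, edgeR adjusted p = 0.175) in KO and -0.95 (SE 0.39, edgeR adjusted p = 0.520) in MUT. F5 had 5 to 12 reads in KO and 8 to 14 in MUT, against 17 to 26 in WT libraries, with log2 fold changes of -1.22 (SE 0.35, edgeR adjusted p = 0.193) in KO and -0.75 (SE 0.35, edgeR adjusted p = 0.534) in MUT. Scaled to library size, Clic6 reached 1.43 CPM in MUT replicate 2 and overlapped WT, whose lowest of these libraries had 1.38 CPM. The lowest adjusted p in MUT against WT was 0.520 and in MUT against KO 0.967.

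Other genes of the plexus epithelium had the same 3 high libraries. Of 30 further markers found in the table, 26 had their 3 highest levels in KO replicate 3, MUT replicate 1 and WT replicate 4, and so did 15 of the 18 that passed the filter, beside 2.57% of all genes tested. Enpp2, which encodes the lysophospholipase D autotaxin, is also made by oligodendrocytes. It was at 836 CPM in KO replicate 3 and 828 CPM in MUT replicate 1, against 542 CPM in WT replicate 4. In the other 9 libraries Enpp2 was at 209 to 278 CPM. Kcne2, a potassium channel subunit of the apical membrane, was at 8.70 CPM in KO replicate 3 and 8.17 CPM in MUT replicate 1, against 3.46 CPM in WT replicate 4, and at no more than 0.33 CPM elsewhere. Cldn2, a claudin of leaky tight junctions, had 181 and 114 reads in the KO and MUT libraries, against 55 reads in the WT library, and no more than 7 in any other. The exceptions among the tested markers were Slc13a4, Slc29a4 and Car12, and Mfrp had no read in any library. No gene of this list was called in any comparison, and its median log2 fold change was -0.06 in KO against WT, -0.20 in MUT against WT and -0.12 in MUT against KO.

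The genes of fluid secretion, many of them widely expressed in brain, showed the pattern in part. Of 20 transporters, carbonic anhydrases and regulators of transport, all tested, 4 had their 3 highest levels in the same libraries: Slc12a2, Slc4a2, Car2 and Car14. Slc4a2, the basolateral chloride bicarbonate exchanger, was at 63.2 CPM in KO replicate 3 and 54.3 CPM in MUT replicate 1, against 48.0 CPM in WT replicate 4, and at 34.2 CPM or less elsewhere. Slc12a2, the NKCC1 cotransporter, was at 115 and 113 CPM in the KO and MUT libraries, against 105 CPM in the WT library, with 65.6 to 90.7 CPM in the other 9. None of the 20 was called, and their medians were 0.05 in KO against WT, 0.06 in MUT against WT and -0.02 in MUT against KO.

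The ligands, carriers and downstream genes of these proteins were described from a list of 32, of which 25 were tested. The same 3 libraries were highest for 4 of the 25, among them the reduced folate carrier Slc19a1, the Wnt co-receptor Lrp5 and the ligand Bmp6. Bmp6 was at 10.5 CPM in KO replicate 3 and 13.2 CPM in MUT replicate 1, against 12.0 CPM in WT replicate 4. Prl, the ligand of Prlr, had 27 reads in WT replicate 1, 3 and 6 reads in KO replicates 1 and 2, 1 read in MUT replicate 3 and none in the other 8 libraries, among them the 3 libraries high in Prlr. No gene of the list was called, and its medians were -0.01 in KO against WT, 0.03 in MUT against WT and 0.10 in MUT against KO.

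Some markers of other tissue near the ventricle were also high in these libraries. The 11 ependymal markers, of the ciliated cells that line the ventricle, summed to 52.4 CPM in KO replicate 3 and 50.4 CPM in MUT replicate 1, against 43.4 CPM in WT replicate 4, and to 32.1 to 40.1 CPM in the other 9 libraries. Foxj1, the regulator of motile cilia, was at 10.5, 9.76 and 8.35 CPM in these 3 libraries and at 3.52 to 5.67 CPM elsewhere. The 11 meningeal markers summed to 303 CPM in MUT replicate 1 and 192 CPM in KO replicate 3, but to 122 CPM in WT replicate 4, which lay within the 87.9 to 141 CPM of the other 9 libraries. Thalamic markers summed to 189 CPM in KO replicate 3 and 203 CPM in MUT replicate 1, against 228 CPM in WT replicate 4, each the highest of its genotype. Cortical markers summed to 2183 CPM in KO replicate 3 and 2010 CPM in MUT replicate 1, against 2187 CPM in WT replicate 4, each the lowest of its genotype. Striatal markers were highest in WT replicate 4 (1995 CPM). The part of these cell types in the choroid plexus values was not tested. Counting tested genes with their 3 highest levels in the same libraries gave 4 of 9 ependymal, 1 of 11 meningeal, 1 of 8 thalamic and 0 of 13 striatal, 7 hippocampal, 10 cortical and 4 blood markers. In KO against WT, the unadjusted edgeR p was 0.00529 to 0.0347 for striatal markers. It was lower for the hippocampal markers Dsp (0.00198) and Lct (0.00379) and, at 0.00457, for the thalamic marker Rora. No marker of these lists was called in any comparison. Their medians in KO against WT, then in MUT against WT and last in MUT against KO, were 0.06, -0.34 and -0.38 for ependymal, -0.12, 0.37 and 0.45 for meningeal, and -1.71, -1.76 and -0.05 for striatal markers. They were 0.70, 1.01 and 0.03 for hippocampal, -0.27, -0.05 and 0.12 for thalamic, 0.01, -0.02 and -0.07 for cortical, and -0.42, -0.26 and 0.15 for blood markers.

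**Figure D4:**
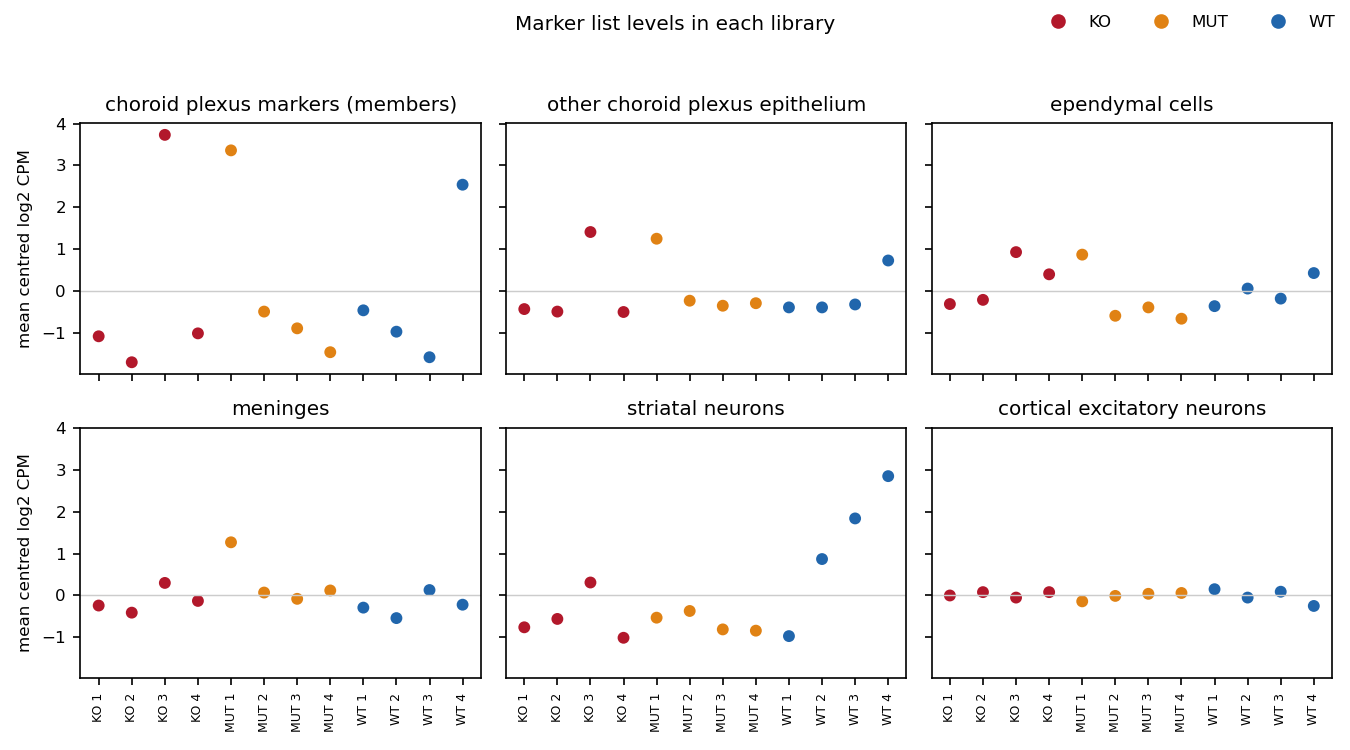
Mean over the tested genes of each list of log2 CPM, each gene taken relative to its own 12-library mean (vertical axis), for every library. The choroid plexus genes stand at 3.73 in KO replicate 3, 3.36 in MUT replicate 1 and 2.54 in WT replicate 4 and below 0 elsewhere, cortical markers stay near 0, and striatal markers are highest in WT replicates 2 to 4.

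The genes whose pattern was most like that of the tested choroid plexus genes were found by the root mean square difference between their centred log2 CPM and the mean centred profile of the 9 genes over the 12 libraries. Compared were 14202 tested genes with a symbol, leaving out the 9 genes themselves and gene models named Gm, LOC or Rik. The 10 nearest of them were Ecrg4 (0.55), Kcnj13 (0.57), Drc7 (0.58), Lbp (0.76), Rbm47 (0.93), Epn3 (1.03), Slc2a12 (1.09), Shox2 (1.10), Abca4 (1.12) and Irx2 (1.13). The median difference of the 14202 genes was 1.91. The next gene was also at 1.13, so the last place is not distinct. Ecrg4, Kcnj13 and Abca4 were on the list of further plexus markers and the other 7 were on no list. Kcnj13, a potassium channel, was at 8.98 CPM in KO replicate 3 and 9.72 CPM in MUT replicate 1, against 5.31 CPM in WT replicate 4. Drc7, a component of motile cilia, was at 10.9 and 7.49 CPM in the KO and MUT libraries, against 4.59 CPM in the WT library, and Lbp, the lipopolysaccharide-binding protein, at 8.92 and 7.83 CPM against 3.82 CPM. Among the 9 genes themselves the difference from their own mean profile, which each helps to set, ran between 0.50 for F5 and 0.76 for Prlr, with Ttr apart at 1.28.

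**Figure D5:**
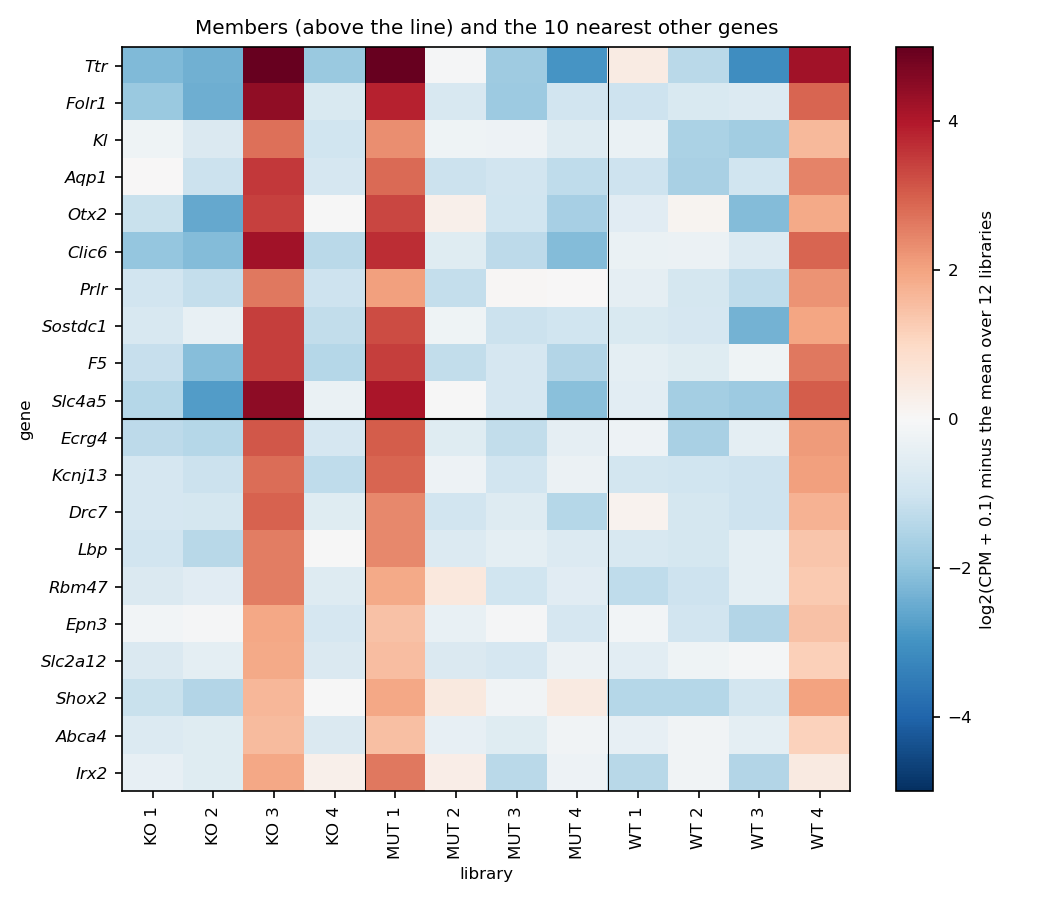
Log2(CPM + 0.1) of the 10 choroid plexus genes (above the line) and the 10 nearest other genes (below it), each centred on its mean over the 12 libraries, by library; the colour scale ends at 5 in both directions. The columns of KO replicate 3, MUT replicate 1 and WT replicate 4 are red in nearly every row, most strongly in Ttr, Folr1 and Slc4a5, and palest in Irx2 of WT replicate 4.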

How the data were processed

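Per the labels' protocols, total RNA of mouse cortex went into directional NEBNext libraries. What the authors deposited is a single table of raw counts, 1 column for each of the 12 libraries, with gene IDs and exon positions. Build mm10, R 4.1.2 and DESeq2 1.34.0 are named in the submitters' processing notes. Aligner, counter and strand setting: not given in the sources used here. Reads of overlapping or antisense genes therefore cannot be told apart with certainty.

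Of 27179 genes (1049 without a symbol, kept in totals and tests), 15298 passed edgeR's filterByExpr by group (minimum count 10, total 15, 4 libraries), a floor of about 0.546 CPM. After TMM scaling, edgeR 4.0.16 under R 4.3.3 fitted genotype and labelled sex to all 12 libraries at once, with 8 residual degrees of freedom and a biological coefficient of variation of 0.101. The model was tested on simulated counts first, with 1 dispersion for all genes and no library set apart. The choroid plexus genes differ from that setting, so the simulation does not show how the model handles them. CPM uses TMM-scaled totals, and ratios are of raw reads. No 2 libraries of a group agreed within sampling noise (lowest chi-square per degree of freedom 3.83). Age was not a term, since only WT mice were 375 days old. Alternatives were other scalings, filters, DESeq2 1.42.0, limma-voom (limma 3.58.1), other terms and left-out libraries. Nearest genes used a prior count of 2.

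The 10 genes and all lists were chosen with earlier results of these data known. The rule for named genes took Grn, the 10 genes, up to 4 called genes of each list and the 10 nearest genes, and other list genes are examples. Some list genes are not reported here.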

Additional observations from a re-analysis of the deposited data

Results flagged for a closer look

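In 28 of the 30 sets formed by 1 choroid plexus gene in the 4 libraries of 1 genotype, the highest library stood apart from the other 3 by a larger share of the whole range than the 95% critical value of Dixon's test for 4 samples. Chance flags about 1 in 20 such sets, counting a library apart at either end, and fewer at the high end alone. That rate holds if values are normally distributed, which was not checked for these CPM. As the 10 genes were chosen with earlier results of these data known, the rate is no test of them. The genes of a library are not independent of each other, so the 28 sets are not separate findings. KO replicate 3 was set apart for all 10 genes, by at least 0.922 of the range, with 1838 CPM for Ttr, 11.8 for Folr1, 62.3 for Kl, 11.3 for Aqp1, 9.36 for Otx2, 43.2 for Clic6, 12.0 for Prlr, 13.9 for Sostdc1, 17.5 for F5 and 15.3 CPM for Slc4a5. MUT replicate 1 was set apart for all 10, by at least 0.837 of the range, with 1283 CPM for Ttr, 7.73 for Folr1, 46.7 for Kl, 7.01 for Aqp1, 8.85 for Otx2, 30.6 for Clic6, 7.78 for Prlr, 12.1 for Sostdc1, 17.6 for F5 and 11.6 CPM for Slc4a5. WT replicate 4 was set apart for 8, by at least 0.895 of the range, with 597 CPM for Ttr, 4.00 for Folr1, 5.43 for Aqp1, 17.7 for Clic6, 8.89 for Prlr, 5.01 for Sostdc1, 9.78 for F5 and 5.55 CPM for Slc4a5. The exceptions in WT were Kl and Otx2, in which WT replicate 4 was highest but within the limit.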

How the results depend on the processing

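No choroid plexus gene was called in any of 22 other settings of the 3 comparisons, where the lowest adjusted p was 0.175 (edgeR). DESeq2 gave no adjusted p for 7 of the 9 genes in any comparison, so it could call only Otx2 and Prlr. Directions were not stable, and their causes were not tested. In KO against WT, Ttr was 0.13 with limma-voom, 1.51 with no sex term and 5.18 with sex and age as terms. In MUT against WT, Ttr was 1.02 with no sex term and 3.68 with age added, and Kl was 0.56 with limma-voom, 0.76 with no sex term, 1.94 with age added, 0.07 with the replicate block and 0.70 without the 3 high libraries. In MUT against KO without those 3, Ttr was 0.52 and Kl 0.18. With each library left out in turn, Ttr ran between -4.74 and 1.96 in KO against WT, -5.72 and 1.33 in MUT against WT and -4.21 and 5.01 in MUT against KO, and, in the same order, Kl between -0.77 and 1.75, -0.97 and 1.32, and -1.40 and 1.46. The median of the genes ran between -2.53 and 1.75, -2.89 and 1.32, and -2.72 and 2.30, and with age added it was 4.43 in KO against WT and 3.52 in MUT against WT.

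Genes called over the whole table in KO against WT (72) were 22 with library size alone, 39 with no filter, 647 with DESeq2, 313 with no sex term, 2 with age added and 2 without the 3 high libraries, and 1 to 1635 with each library left out, the highest without WT replicate 1. In MUT against WT (3) they were 52 with DESeq2, 7 with no sex term and 2 to 1066 with a library left out, and in MUT against KO (1) 15 with DESeq2 and 1 to 10 with a library left out. Same-numbered libraries correlated at -0.38 to 0.29 in their deviations from the group mean, and the replicate block left 2 genes called in KO against WT. The correlations run over all tested genes and cannot tell whether replicate numbers pair the libraries. Of the 10 nearest genes, 7 to 9 stayed under each other setting. Depth limits Folr1, Aqp1, Otx2, Sostdc1 and Slc4a5, which had under 20 reads in each library but the 3 high ones.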
